A study of Homo sapiens with 6 samples.

Results

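The CEBP family genes CEBPA, CEBPB, CEBPD, CEBPE and CEBPG were taken with 50 kb on either side of the gene body, and every deposited peak that touched these 5 windows was listed. They are 5 of 20162 protein-coding genes for H3K27Ac and 5 of 19666 for H3K4me3. The windows held 114 of 327715 H3K27Ac peaks in control cells (sgNeg) and 118 of 317059 in cells with a guide against mutant NPM1 (sgNpm1A). For H3K4me3 they held 165 of 353628 peaks in sgNeg and 43 of 106641 in sgNpm1A. The labels name the cells of every library as OCI-AML3, an established human acute myeloid leukemia line with mutant NPM1. The deposited H3K27Ac lists are, however, tagged OCI2 and the H3K4me3 lists OCI3. The study also used OCI-AML2, a line with wild-type NPM1 only, and a derivative of it with a mutant NPM1 copy knocked in. Whether the H3K27Ac values below come from OCI-AML3 was not settled, and the extent of editing is not measured in these lists. They were transfected with the control guide or the sgNpm1A guide and cultured for 3 days per the labels, while the study text states a longer time. Each guide and mark was 1 library of bulk transfected cells, so no difference has a replicate check, no p-value between guides was computed, and edited and unedited cells of the sgNpm1A culture cannot be told apart. H3K27Ac, histone H3 acetylated at lysine 27, is found at enhancers and promoters in use. H3K4me3, histone H3 trimethylated at lysine 4, is found mainly at promoters in use.

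CEBP proteins are basic leucine zipper transcription factors that bind DNA as dimers with one another or with related zipper proteins. In the myeloid lineage C/EBPα drives the entry into granulocyte differentiation, C/EBPβ serves granulocyte production under stress, and C/EBPε acts in late granulocyte maturation and on granule genes. C/EBPγ lacks a typical activation domain and acts mainly through its dimer partners. CEBPA and CEBPG are neighbours on chromosome 19, and a myeloid enhancer is known downstream of CEBPA.

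The promoter sequences below show how unlike the members are in base composition, and are given for the start windows that the H3K4me3 results turn on. They are RefSeq windows of GRCh38.p14, from 250 bases before to 50 after a transcript start, 5′ to 3′ on the strand of the gene, with each CG dinucleotide in capitals. For CEBPB and CEBPG the second of the listed starts is shown, whose window the sgNeg H3K4me3 peak overlapped. The CEBPA window is chr19:33302485-33302784 on the minus strand, and the CEBPG window is chr19:33373863-33374162 on the plus strand. The CEBPB window is chr20:50190580-50190879 on the plus strand, and the CEBPE window is chr14:23119206-23119505 on the minus strand.
CEBPA promoter: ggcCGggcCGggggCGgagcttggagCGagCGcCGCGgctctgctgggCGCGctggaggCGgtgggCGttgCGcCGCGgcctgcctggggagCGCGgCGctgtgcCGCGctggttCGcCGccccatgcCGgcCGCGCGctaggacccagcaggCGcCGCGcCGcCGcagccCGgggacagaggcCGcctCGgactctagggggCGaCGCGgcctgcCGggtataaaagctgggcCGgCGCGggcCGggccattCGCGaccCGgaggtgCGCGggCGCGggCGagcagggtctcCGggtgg
CEBPB promoter: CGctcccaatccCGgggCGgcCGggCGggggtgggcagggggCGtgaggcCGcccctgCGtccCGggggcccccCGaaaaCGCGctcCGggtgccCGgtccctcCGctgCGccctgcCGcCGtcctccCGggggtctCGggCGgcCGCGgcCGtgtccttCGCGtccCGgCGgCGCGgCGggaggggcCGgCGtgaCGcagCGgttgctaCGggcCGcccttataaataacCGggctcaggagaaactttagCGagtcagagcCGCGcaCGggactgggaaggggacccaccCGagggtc
CEBPG promoter: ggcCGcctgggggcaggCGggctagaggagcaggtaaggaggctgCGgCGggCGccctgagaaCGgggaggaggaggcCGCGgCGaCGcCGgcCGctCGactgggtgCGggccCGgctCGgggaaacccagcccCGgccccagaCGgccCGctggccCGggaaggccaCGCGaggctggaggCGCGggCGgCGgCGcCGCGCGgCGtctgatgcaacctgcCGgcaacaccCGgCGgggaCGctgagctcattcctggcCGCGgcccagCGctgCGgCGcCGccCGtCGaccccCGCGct
CEBPE promoter: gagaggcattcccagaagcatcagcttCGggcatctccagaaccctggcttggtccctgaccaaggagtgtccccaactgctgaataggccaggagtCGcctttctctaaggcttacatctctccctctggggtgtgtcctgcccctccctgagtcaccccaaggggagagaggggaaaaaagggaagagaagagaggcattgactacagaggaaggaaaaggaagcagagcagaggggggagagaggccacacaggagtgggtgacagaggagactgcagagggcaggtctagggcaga

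The CEBPA window held 50 CG dinucleotides, as many as or more than 98.99% of the 35116 promoter windows of the table. The CEBPG window held 45 and the CEBPB window 43, against a median of 14. The CEBPE window held 2, and 18.2% of all windows held that many or fewer. The sgNeg H3K4me3 peaks covered 300 bases of this CEBPG window and 174 of this CEBPB window, which were chosen for that overlap. They covered 0 bases of the windows at the first CEBPG and CEBPB starts, which held 43 and 31 CG dinucleotides. The sgNeg peaks also covered 0 bases of the CEBPA and CEBPE windows, the CEBPA peak beginning 72 bp downstream of the start, and no sgNpm1A H3K4me3 peak touched any of these windows. The letters TTGCNNAA, a core of the C/EBP site searched on both strands, were in none of the 4 windows and in 10.5% of all windows. The letters TATAAA, on either strand, were in the CEBPA window and the shown CEBPB window, but not at the first CEBPB start, and in 11.5% of all windows. The letters GGGCGG were found 2 times in the CEBPA window, 5 times in the CEBPB window and 2 times in the CEBPG window, on either strand, and 45.0% of all windows held them.

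Peaks had been called in each library separately. Fold enrichment is the deposited ratio of fragments in a peak to the expected number, averaged over the region for H3K27Ac and taken at the summit for H3K4me3, and a rank is the place of a peak in its own list, with rank 1 the highest or widest. The H3K27Ac lists are on GRCh37 and the H3K4me3 lists on GRCh38. Peaks of sgNpm1A H3K4me3 covered 0.591 times the length of sgNeg peaks over all chromosomes, with a background of 2.93 fragments against 3.81. The same ratio for H3K27Ac was 0.884, and the part of these library differences in the results below was not tested. Read numbers behind the H3K27Ac values are unknown.

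Peaks covered less of all 5 windows in sgNpm1A than in sgNeg, for both marks. For H3K27Ac this was 5 of 5 members against 67.1% of all coding genes, and the covered length was at most 0.5 times that of sgNeg in 3 of 5 members against 27.2% of all genes. Among the 6581 genes covered in sgNeg at least as much as CEBPE, the least covered member, that share was 33.1%. For H3K4me3 the members were 5 of 5 against a background of 95.9%, and 3 of 5 against 63.5% at 0.5 times or less, or 49.0% among the 4903 genes covered at least as much as CEBPE. The median ratio of the members was 0.453 for H3K27Ac, beside 0.745 over all genes, and 0.295 for H3K4me3, beside 0.389. The H3K4me3 counts of members therefore lie near the level of all genes.

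CEBPA had the widest H3K27Ac coverage of the members in sgNeg. Its window was covered over 60.0% in sgNeg, rank 261 of 20162 genes, and over 17.2% in sgNpm1A, rank 3978. CEBPG went from 36.3% to 16.0%, rank 2010 to 4515, and CEBPB from 36.4% to 16.5%, rank 2004 to 4289. CEBPD went from 37.3% to 23.8%, rank 1869 to 2122. CEBPE had the least coverage in both lists, 17.6% and 14.0%, and its rank rose from 6581 to 5526. The windows of CEBPA and CEBPG overlap by 28.9 kb, so these members share some peaks. The ratios of sgNpm1A to sgNeg covered length spread from 0.287 for CEBPA over 0.440 for CEBPG, 0.453 for CEBPB and 0.638 for CEBPD to 0.793 for CEBPE. This order depended on the peaks kept. With a q-value under 0.01 the CEBPE ratio was 0.453, and 4 of 5 members were at 0.5 or less against 45.4% of all genes. With 20000 peaks per list CEBPE was at 0.310 and CEBPD was highest at 0.769, and 4 of 5 members stood against 81.0% of all genes.

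The H3K4me3 order was different. CEBPD had the widest coverage, 17.3% in sgNeg and 11.7% in sgNpm1A, rank 1084 and 832 of 19666 genes. Its whole chromosome was densely covered, though. H3K4me3 peaks lay over 10.2% of chromosome 8 in sgNeg and 7.30% in sgNpm1A, against 3.04% and 1.79% of all chromosomes. CEBPA went from 10.1% to 1.65%, CEBPB from 9.31% to 1.65%, CEBPE from 7.60% to 2.24% and CEBPG from 7.92% to 5.29%. The ratios were 0.164 for CEBPA, 0.177 for CEBPB, 0.295 for CEBPE, 0.667 for CEBPG and 0.674 for CEBPD.

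The mean fold of the H3K27Ac peaks, weighted by length, was lower in sgNpm1A in every member window, while the number of peaks was higher at CEBPA and CEBPB and lower at CEBPD, CEBPE and CEBPG. The share of all genes with a lower mean fold was not computed, so this cannot be called a trait of the family. The unweighted median fold of the whole lists was 2.78 in sgNeg and 2.94 in sgNpm1A. The CEBPA window held 13 peaks of mean fold 7.10 in sgNeg and 18 of 3.08 in sgNpm1A. The CEBPB window held 28 and 29 (4.13 and 3.02), the CEBPD window 29 and 28 (4.84 and 3.48), the CEBPE window 26 and 24 (3.45 and 3.02) and the CEBPG window 24 and 21 (4.14 and 3.11). H3K4me3 peaks were fewer in sgNpm1A in every window, with 28 and 4 at CEBPA, 29 and 4 at CEBPB and 52 and 19 at CEBPD. The CEBPE window held 27 and 4 and the CEBPG window 33 and 12, beside 353628 and 106641 in the whole lists. The H3K4me3 mean fold was lower in sgNpm1A as well. It was 8.59 and 3.58 at CEBPA, 5.15 and 3.88 at CEBPB, 5.85 and 4.13 at CEBPD, 4.28 and 3.89 at CEBPE and 4.14 and 3.93 at CEBPG. For this mark too the share over all genes was not computed. The unweighted median fold of the whole H3K4me3 lists was 3.33 in sgNeg and 3.56 in sgNpm1A.

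**Figure D1:**
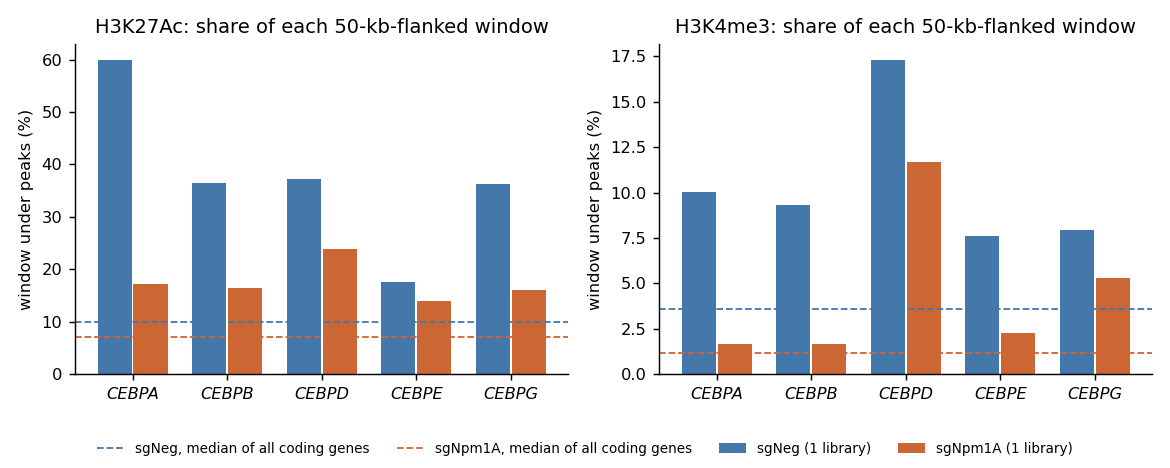
Share of each member window under peaks, in percent, for H3K27Ac (left) and H3K4me3 (right), with 1 bar per library and dashed lines for the median of all coding genes in each list. Every sgNpm1A bar is lower than the sgNeg bar beside it, and the CEBPA bar for H3K27Ac falls from 60.0% to 17.2%.

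The peaks over transcript starts were compared next, as the highest peak within 1 kb of a start. All 5 members had an H3K27Ac peak there in sgNeg, and 2 of them, CEBPB and CEBPE, in sgNpm1A. Among all coding genes, 79.1% had such a peak in sgNeg and 57.0% in sgNpm1A, and 34.0% of those with a sgNeg peak had none in sgNpm1A. For the members that share was 3 of 5. With promoters of 2 kb on either side it was 1 of 5, CEBPG alone, against 24.4% of all genes, so the count rests on the promoter width. Of the sgNeg member peaks, 4 were at or above the 99th percentile of fold over all peaks of the list. That level was reached by 3104 of 20162 coding genes. No sgNpm1A peak was found at 3 of these 4 members, beside 41.8% for all genes of that level. For H3K4me3, all 5 members had a sgNeg peak and only CEBPE had a sgNpm1A peak. Over all genes these shares were 67.5% and 9.17%, and 88.9% of genes with a sgNeg peak had none in sgNpm1A. For H3K4me3, 3345 of 19666 coding genes were at or above the 99th percentile, CEBPA and CEBPD among them. Both of these members had no sgNpm1A peak, and neither did 96.1% of all genes at that level. In this the members were close to the list as a whole.

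**Figure D2:**
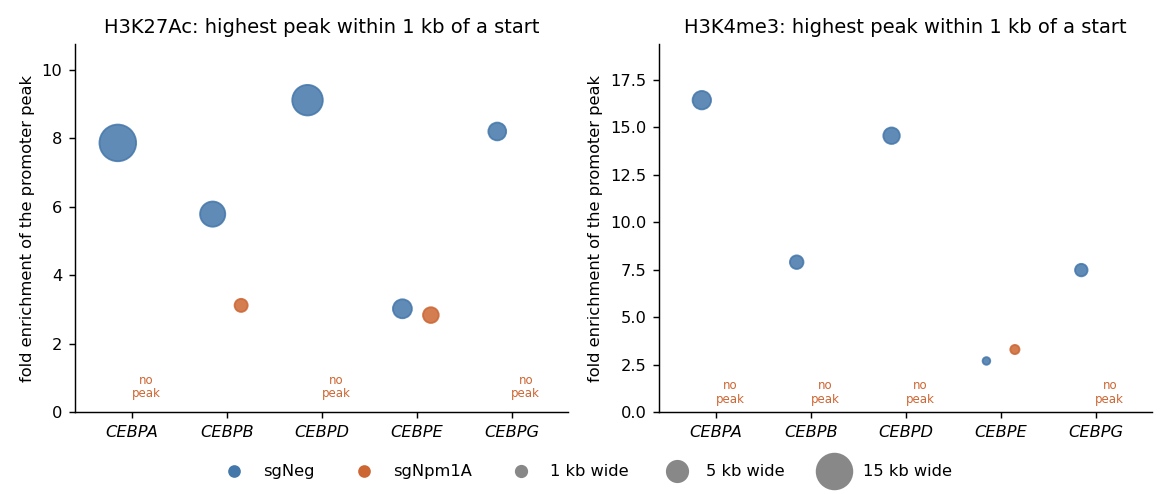
Fold enrichment of the highest peak within 1 kb of a start for each member, H3K27Ac (left) and H3K4me3 (right), with point area growing with peak width and 1 library per guide. CEBPD (9.11-fold) is highest for H3K27Ac and CEBPA (16.4-fold) for H3K4me3, CEBPE lies low in both guides, and "no peak" marks an absent sgNpm1A peak.

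CEBPA (ENSG00000245848, minus strand, chr19:33790840-33793440) had its H3K27Ac promoter peak in sgNeg at chr19:33780292-33796199. It was 15908 bp wide, had a fold of 7.86, and ranked 660 by fold and 223 by width. Its H3K4me3 promoter peak in sgNeg, at chr19:33298876-33302462 of GRCh38, was 3587 bp wide with 16.4-fold enrichment and 78 fragments at the summit (95% Poisson interval 61.7 to 97.3, counting error only). It ranked 74 by fold and 68 by width, ahead of every other H3K4me3 peak of the member windows. A second H3K4me3 peak of 1284 bp and 8.74-fold lay over CEBPA-DT, the divergent transcript. In sgNpm1A neither peak was present. The nearest sgNpm1A peak to the CEBPA start was 1520 bp away for H3K27Ac and 8463 bp away for H3K4me3. Inside the sgNeg promoter peak the sgNpm1A H3K27Ac list held 4 pieces, which covered 22.3% of it.

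CEBPG (ENSG00000153879, plus strand, chr19:33864591-33873592) had a narrower sgNeg H3K27Ac promoter peak of 3295 bp at chr19:33862581-33865875, with a fold of 8.20 and ranks of 514 by fold and 8262 by width. Its sgNeg H3K4me3 peak, at chr19:33373827-33375155 of GRCh38, was 1329 bp wide with 7.49-fold enrichment and 35 fragments (24.4 to 48.7). The sgNpm1A lists held no peak at the promoter, and no sgNpm1A H3K27Ac peak touched the sgNeg promoter peak. The nearest was 5027 bp from the start for H3K27Ac and 14132 bp for H3K4me3.

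The shared CEBPA and CEBPG locus, 182.753 kb on GRCh37 with starts 71.151 kb apart, held the widest peak of all member windows. This sgNeg H3K27Ac peak, chr19:33749822-33779746, was 29925 bp wide, ranked 25 by width and 501 by fold (8.24-fold), and began 13.7 kb and ended 43.6 kb downstream of the CEBPA start. It overlaps the lncRNA gene ENSG00000270212. The sgNpm1A list had 6 pieces inside it, which covered 25.6% of it, the widest of 2529 bp and the highest of 3.43-fold. That highest piece was chr19:33765118-33765811, and its central 300 bases, chr19:33765315-33765614 of GRCh37, on the plus strand and with CG dinucleotides in capitals, show the sequence under the highest sgNpm1A signal left in this region.
distal piece: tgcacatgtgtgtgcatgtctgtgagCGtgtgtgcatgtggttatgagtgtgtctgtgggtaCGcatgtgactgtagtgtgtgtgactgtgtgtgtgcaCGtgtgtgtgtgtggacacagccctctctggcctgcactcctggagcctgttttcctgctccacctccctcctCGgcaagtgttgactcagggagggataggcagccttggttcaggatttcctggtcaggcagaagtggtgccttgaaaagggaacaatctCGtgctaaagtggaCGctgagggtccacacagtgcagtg

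This stretch holds repeated GT dinucleotides, 6 CG dinucleotides and no TTGCNNAA, letters that were in the central 300 bases of 13.1% of the sgNpm1A H3K27Ac peaks. The whole wide sgNeg peak had 10 matches of TTGCNNAA, or 0.334 per kb, against a median of 0.422 per kb over the 3850 sgNeg peaks of at least 5 kb.

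Beyond CEBPA, the 50 kb downstream of it were covered over 95.9% in sgNeg and 28.9% in sgNpm1A. The CEBPA gene body was covered over 100% and 12.6%. Between the genes coverage was 20.7% and 5.71%, in CEBPG 23.6% and 0%, and in the 50 kb beyond CEBPG 54.7% and 31.2%. Apart from the CEBPA and CEBPG promoter peaks, there were 29 distal sgNeg peaks and 37 distal sgNpm1A peaks at the locus. Distal means away from the starts of these genes only, and some distal peaks of both lists reached PEPD promoters. A sgNpm1A peak overlapped 16 of the 29 (55.2%, Wilson interval 37.5 to 71.6%), and a sgNeg peak overlapped 33 of the 37 (89.2%, 75.3 to 95.7%). These intervals give counting error only and treat neighbouring peaks as independent, though several sgNpm1A pieces lay in the same sgNeg peak. Over the whole lists the shares were 50.7% and 51.4%. The sgNeg peaks covered 51.9% of the locus and 95.9% of the 50 kb beyond CEBPA, against 7.12% of all chromosomes. Wide coverage can raise the share of overlapped sgNpm1A peaks by itself, and its part in the 89.2% was not tested. The 89.2% is not read here as kept distal peaks particular to the locus. An overlap was at least 1 bp, and when 50% of both peaks had to overlap the sgNeg share was 20.7%. Of the 37 sgNpm1A peaks, 4 lay inside the sgNeg CEBPA promoter peak and counted as distal only because they missed the promoter. Without them, in a count added after the data were seen, 29 of 33 (87.9%) overlapped.

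The 5 distal sgNeg H3K27Ac peaks of the highest fold were the 29.9 kb peak, a 12.1 kb peak beyond CEBPG over PEPD (chr19:33877579-33889634, 4.59-fold), a 5.34 kb intergenic peak between the genes (chr19:33819665-33825001, 4.54-fold), a 12.1 kb peak further downstream of CEBPA (chr19:33735747-33747887, 4.52-fold) and a 169 bp peak over the pseudogene AKR1B1P7 (3.34-fold). The 12.1 kb peak over PEPD also reached a PEPD promoter. The intergenic peak had no sgNpm1A peak in it, while 7 pieces covered 33.3% of the PEPD peak and 6 pieces covered 52.1% of the further downstream one. The 5 highest distal sgNpm1A peaks reached folds of 3.33 to 3.81, the highest being chr19:33740534-33741913 at rank 11197 of 317059. For H3K4me3, 12 of 53 distal sgNeg peaks and 10 of 16 distal sgNpm1A peaks overlapped the other list (22.6% and 62.5%), close to the 22.6% and 61.2% of the whole lists, and the highest distal peak of both lists lay over PEPD, at 4.78-fold in sgNeg and 5.60-fold in sgNpm1A.

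**Figure D3:**
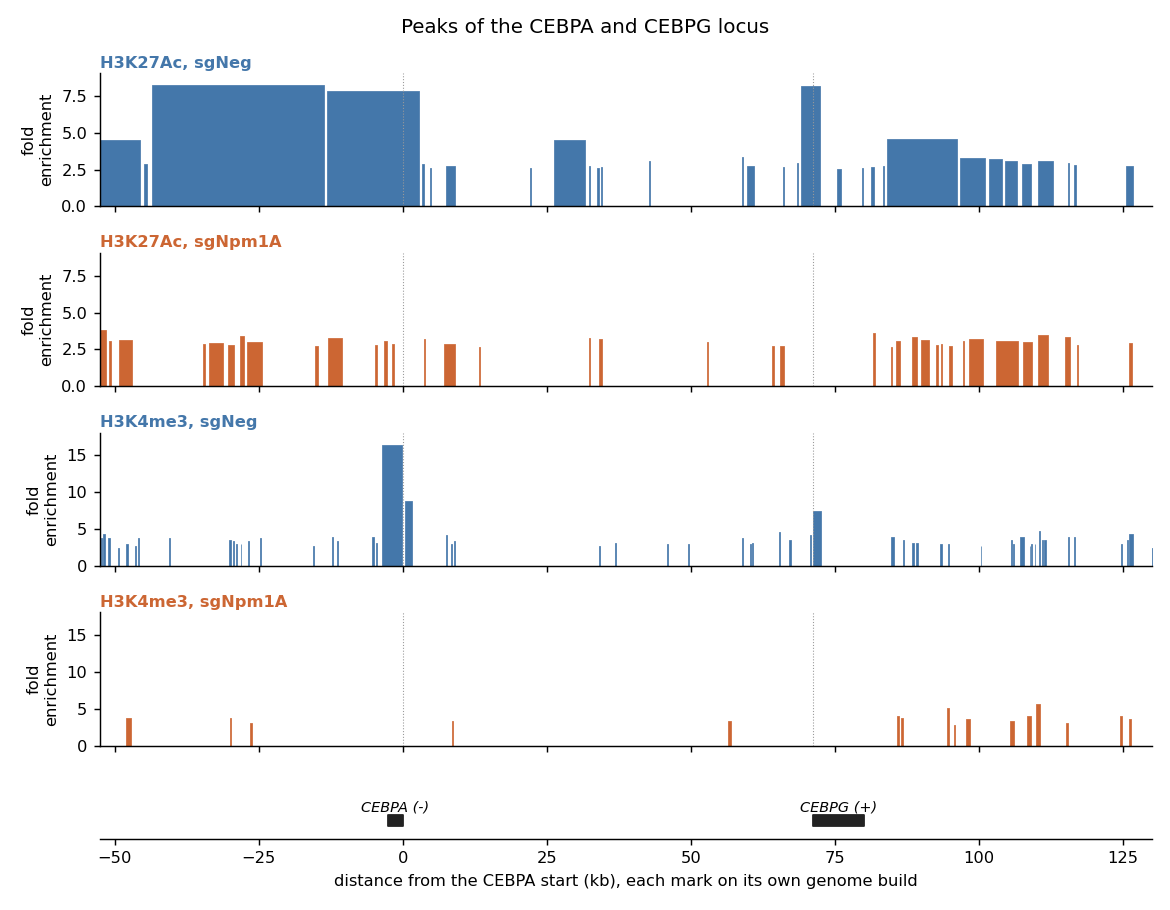
Peaks of the CEBPA and CEBPG locus, with distance from the CEBPA start in kb on the horizontal axis (each mark on its own genome build), fold enrichment on the vertical axis, and 1 track per library. The wide H3K27Ac blocks left of the CEBPA start in sgNeg are small pieces in sgNpm1A, and the H3K4me3 peaks at both starts are missing in sgNpm1A.

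CEBPB (ENSG00000172216, plus strand, chr20:48807367-48809205) had a sgNeg H3K27Ac promoter peak of 7188 bp at chr20:48805019-48812206, 5.78-fold, ranked 3200 by fold and 1761 by width. The sgNpm1A peak counted there, chr20:48805108-48806617, was 1510 bp wide and 3.12-fold, ranked 92955, and ended 750 bp before the start. The second wide sgNeg peak, 11474 bp and 4.93-fold at chr20:48830282-48841755, lay 22.9 to 34.4 kb downstream of the start, and 6 sgNpm1A pieces covered 25.5% of it. For H3K4me3 the sgNeg promoter peak was 1666 bp wide, 7.90-fold, with 37 fragments (26.1 to 51.0), and the nearest sgNpm1A peak was 40512 bp away. The highest sgNeg H3K4me3 peak of this window, 9.78-fold, was at the promoter of PEDS1 and not of CEBPB.

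CEBPE (ENSG00000092067, minus strand, chr14:23586245-23589465) had the weakest promoter peaks of the members in sgNeg, and it was the only member with a promoter peak in all 4 lists. Its H3K27Ac peak in sgNeg, chr14:23585834-23589658, was 3825 bp wide with 3.02-fold enrichment, rank 77133 by fold. In sgNpm1A it was chr14:23586708-23589152, 2445 bp and 2.84-fold, rank 206679, and covered 63.9% of the sgNeg peak. Both H3K4me3 peaks had 12 fragments (6.20 to 21.0), with widths of 120 bp in sgNeg and 444 bp in sgNpm1A, and ranked 312028 and 69527. They lay near the lowest fragment numbers of their lists, 11 in sgNeg and 10 in sgNpm1A. The overlap of the H3K4me3 peaks was 27 bp, or 22.5% of the sgNeg peak. The highest H3K27Ac peaks of the window were elsewhere, at the ACIN1 and C14orf119 promoters in sgNeg (6.73-fold) and in an intron of ACIN1 in sgNpm1A (5.04-fold).

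CEBPD (ENSG00000221869, minus strand, chr8:48649475-48650726) had the highest H3K27Ac promoter fold of the family. The sgNeg peak was 10870 bp wide and 9.11-fold, rank 248 by fold and 657 by width. In sgNpm1A no peak lay within 1 kb of the start and the nearest was 1414 bp away, yet 3 pieces of up to 4059 bp covered 57.0% of the sgNeg peak. That sgNeg peak also reached a promoter of the neighbouring gene SPIDR. All 3 pieces lay over SPIDR and none over the CEBPD gene. The CEBPD H3K4me3 peak in sgNeg was 2740 bp wide and 14.6-fold with 69 fragments (53.7 to 87.3), rank 160 by fold and 197 by width. The nearest sgNpm1A H3K4me3 peak was 5539 bp away. Peaks covered 1.12 times as much of chromosome 8 in sgNpm1A as in sgNeg for H3K27Ac, and 0.716 times for H3K4me3, against 0.619 and 0.396 times for chromosome 19. The part of the chromosome level in the CEBPD values was not tested.

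**Figure D4:**
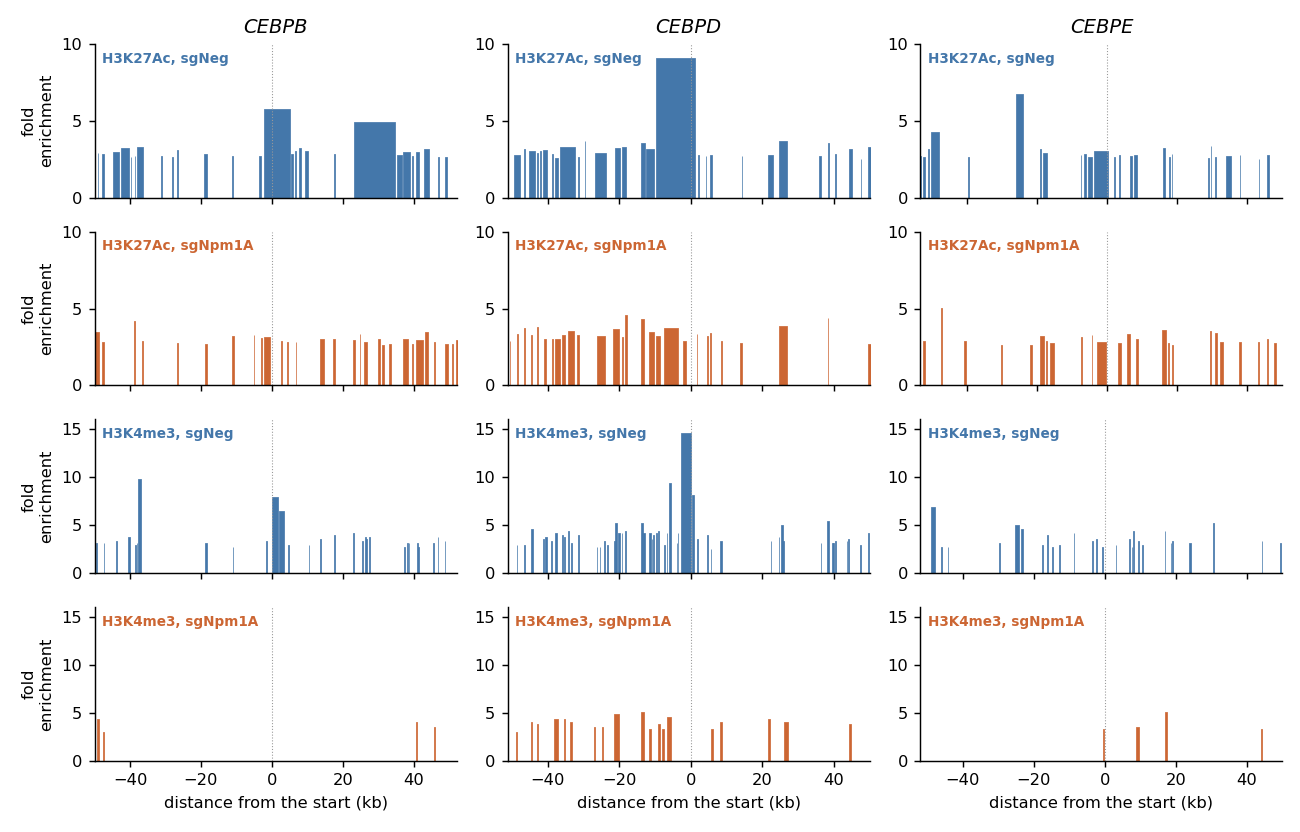
Peaks of the CEBPB, CEBPD and CEBPE windows, with distance from the gene start in kb on the horizontal axis, fold enrichment on the vertical axis, and 1 row per mark and guide. CEBPD carries the tallest sgNeg blocks (9.11-fold and 14.6-fold), and the H3K4me3 rows of sgNpm1A hold 4, 19 and 4 peaks in the order of the columns.

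Over all 5 windows, 8 H3K27Ac peaks were wider than 5 kb in sgNeg and 0 in sgNpm1A, where 1.17% and 0.257% of the lists were that wide. Peaks with a q-value under 1e-05 numbered 11 of 114 and 2 of 118, beside 2.88% and 0.908% of the whole lists, where such peaks were also fewer in sgNpm1A. Neighbouring H3K27Ac peaks were also joined into regions, ranked within each list by their summed product of length and fold. There were 49245 regions in sgNeg and 52913 in sgNpm1A, built anew in each list. The best region over CEBPA was rank 185 in sgNeg (top 0.376%) and 752 in sgNpm1A (top 1.42%). The CEBPB ranks were 129 and 507 (top 0.262% and 0.958%), and the CEBPD ranks 59 and 116 (top 0.120% and 0.219%). The ranks in the CEBPE window were 928 and 1232 and those in the CEBPG window 759 and 548, but the sgNeg region did not reach the CEBPE gene and the sgNpm1A region did not reach the CEBPG gene, so different regions stand side by side. These regions were long, up to 1061 kb for CEBPD in sgNeg, and the order of the members depended on the setting. With joining within 5 kb the sgNeg ranks were 54 for CEBPA, 179 for CEBPB and 302 for CEBPD. The sgNpm1A ranks were 2072, 2067 and 1499. Of these regions, those for CEBPB in both lists and for CEBPA in sgNpm1A did not reach the gene. The CEBPG ranks with this joining were 782 and 1589. There too the sgNpm1A region did not reach the CEBPG gene. With a q-value under 0.01 the CEBPE ranks were 4259 and 3400, and neither region reached the CEBPE gene. At that cutoff CEBPA ranked 41 and 825, CEBPB 1318 and 6488, and CEBPD 264 and 500. Again the CEBPB regions and the sgNpm1A CEBPA region did not reach the gene.

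Genes of the same pathway were counted from lists chosen with earlier results of these data known. The shares over all coding genes to set beside these counts are 79.1% in sgNeg and 57.0% in sgNpm1A for H3K27Ac, and 67.5% and 9.17% for H3K4me3. Of 12 zipper partners of C/EBP, 11 had an H3K27Ac promoter peak in sgNeg and 8 in sgNpm1A, and 11 and 2 had an H3K4me3 one. The highest were ATF4 (6.67-fold) and ATF5 (6.45-fold) for H3K27Ac, and FOS (10.2-fold) and ATF4 (9.57-fold) for H3K4me3. Of 8 regulators of C/EBP, 8 and 5 had an H3K27Ac peak and 6 and 0 an H3K4me3 peak. SPI1, the gene of PU.1, led H3K27Ac at 10.5-fold in sgNeg and 2.83-fold in sgNpm1A, followed by the repressor gene GFI1 at 8.65-fold and 2.86-fold. For H3K4me3 the highest were TRIB1 (14.6-fold), whose product promotes degradation of C/EBPα, and GFI1 (11.02-fold). Of 16 myeloid genes known as C/EBP targets, 15 and 11 had an H3K27Ac peak and 11 and 2 an H3K4me3 peak. AZU1 led H3K27Ac at 10.97-fold, and the neutrophil protease genes ELANE and PRTN3 shared the next value of 7.58-fold. ELANE (11.02-fold) and IL6R (10.2-fold) were highest for H3K4me3. ITGAM, the gene of CD11b, had a sgNpm1A H3K27Ac promoter peak above the 95th percentile of its list, at 4.34-fold against 3.57-fold in sgNeg. The median ratio of covered window was 0.551 for partners, 0.544 for regulators and 0.605 for targets in H3K27Ac, and 0.243, 0.305 and 0.364 in H3K4me3, in the same order, beside 0.745 and 0.389 over all genes.

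The labelled cell type was checked with marker lists. In sgNeg, H3K27Ac promoter peaks were at 7 of 7 myeloid, 4 of 4 B cell, 2 of 3 T cell, 2 of 3 erythroid and 2 of 3 epithelial markers, and these low-threshold calls did not separate the lists. CEBPE is both a member and one of the myeloid markers. By H3K27Ac fold in sgNeg, 4 of the 7 myeloid markers, SPI1 (10.5), MPO (6.25), FLT3 (3.91) and CD33 (3.71), were above the highest non-myeloid marker, HBB (3.51), and LYZ (3.45), CSF1R (3.34) and CEBPE (3.02) were below it. H3K4me3 promoter peaks in sgNeg were at 4 of 7 myeloid, 0 of 4 B cell, 1 of 3 T cell, 1 of 3 erythroid and 0 of 3 epithelial markers. Over all coding genes the sgNeg shares were 79.1% for H3K27Ac and 67.5% for H3K4me3. By H3K4me3 fold, SPI1 (10.6) and CD33 (6.86) were above the T cell marker CD3E (3.74), and MPO (3.12) and CEBPE (2.70) were below it. In sgNpm1A the H3K27Ac counts were 5 of 7, 3 of 4, 2 of 3, 2 of 3 and 2 of 3, and the H3K4me3 counts 2 of 7, 0 of 4, 1 of 3, 0 of 3 and 2 of 3, in the same order. The sgNpm1A shares over all coding genes were 57.0% for H3K27Ac and 9.17% for H3K4me3. PAX5, a B cell marker, reached 4.06-fold in sgNpm1A H3K27Ac against 2.91-fold in sgNeg.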

How the data were processed

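Cells labelled OCI-AML3, with the sgNeg or sgNpm1A guide, were profiled by ChIPmentation for H3K27Ac and H3K4me3, with 1 library per guide and mark. The authors deposited 1 peak list per library, called separately, and the 2 input libraries were not analysed here. Per the labels, the processing tools were bcl2fastq 2.17, Trimmomatic 0.33, Bowtie 1.1.2, MACS2 2.1.0 and deepTools, with their roles, the calling threshold and the use of inputs not given in the sources used here. The deposited fold enrichment is a ratio, the deposited p-values and q-values are −log10 values, and the deposited score was not used. Groups came from the sample titles. Labels name hg38 for all lists, but H3K27Ac peaks run past the end of chromosome 1 in that build and are on GRCh37. The H3K27Ac lists are tagged OCI2 and the H3K4me3 lists OCI3, with no meaning stated.

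H3K4me3 fold followed (fragments + 1)/(background + 1), which gave whole fragment numbers, within 0.02, for 100% of peaks. Windows were the gene body with 50 kb on either side, and promoters 1 kb on either side of a start. GENCODE version 44 on GRCh37 gave 146566 starts for H3K27Ac. For H3K4me3, 15842 genes had starts in the RefSeq promoter table and 3824 only a gene record, CEBPD among them. Overlap was at least 1 bp, and intervals are Wilson or Poisson at 95%. Computations ran in Python 3.11.15 (pandas 2.3.3; numpy 2.4.6; intervals from scipy 1.17.1), with functions tested on simulated data. Named items were the members, their promoter, highest and widest peaks, the 5 highest distal peaks, and the 2 highest genes of each list with any above the 95th percentile in sgNpm1A. The members and gene lists were chosen with earlier results of these data known.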

Additional observations from a re-analysis of the deposited data

How the results depend on the processing

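No paired analysis was possible because each guide and mark had 1 library, and leaving out a replicate was likewise not possible. The ratio of H3K27Ac covered length over the member windows was 0.478. It was 0.300 with a q-value under 0.01, 0.00929 with a q-value under 1e-05 and 0.119 when each list was limited to its best 20000 peaks by p-value, while windows of 20 and 100 kb kept it within 1.5 times. The H3K4me3 ratio was 0.439, and 0.166 with a q-value under 1e-05. With promoters of 2 kb on either side, 1 member in place of 3 lost its H3K27Ac promoter peak, because peaks at 1414 and 1520 bp from the CEBPD and CEBPA starts then counted. At the CEBPA and CEBPG locus the share of distal sgNeg peaks overlapped in sgNpm1A was 55.2%, and 20.7% when 50% of both peaks had to overlap or 0 of 4 peaks (0%) with a q-value under 1e-05. Of the ratios of single members, 27 stayed within 1.5 times and 23 moved further, and none changed direction. Peak lists limit depth: H3K27Ac fragment numbers are unknown, and the sgNpm1A H3K4me3 list was called at a lowest pileup of 10 fragments against 11. The cause of these shifts was not tested.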
